A study of Mus musculus with 6 samples.

Results

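Nebl, Lasp1, Scin, Gsn, Capg, Csrp3, Mrtfa, Mrtfb and Srf are 9 genes of the actin cytoskeleton and of the transcription pathway that reads its state. They were followed in Ba/F3 cells switched on for a PAX5 fusion. They were chosen by name, as every probe set that carries one of these symbols: 9 of 18193 genes and 28 of 45037 probe sets. The choice was made with results of these arrays known, since Nebl and Mrtfa were already seen to differ with doxycycline and the rule also uses the difference between array sets. Their signals, their differences with doxycycline and their differences between arrays are therefore given as a description. Intervals, ranks and calls quoted for them come from the fit of all genes and support nothing, since the same contrasts chose the genes.

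Ba/F3 is a mouse haematopoietic line that needs interleukin-3, labelled as BALB/c murine leukaemia cells and grown with WEHI-3 supernatant as the source of the cytokine. All 6 samples carried PAX5-KIDINS220 (P-K220) under a Tet-on promoter brought in by retrovirus. The Dox(-) group had no doxycycline and the Dox(+) group had 500 ng/mL, 3 samples each, with RNA taken after 24 h. The study asked which pathways the fusion affects. Cells without the fusion but with doxycycline were not analysed here, so an effect of the drug and one of the fusion cannot be told apart. The labels say neither whether the cells were 1 clone nor whether each sample was a culture of its own, so p-values measure the spread between these samples, which may be technical.

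Actin filaments grow from monomers and are cut and capped by proteins of the gelsolin family, which includes gelsolin (Gsn), scinderin or adseverin (Scin) and the capping protein CapG (Capg). Nebulette (Nebl) belongs to the nebulin family of filament-binding proteins and is best known from the Z-discs of heart muscle. A shorter LIM-domain form of it has the same domain order as LASP1, an adaptor at the leading edge of moving cells. Csrp3 encodes muscle LIM protein, another Z-disc protein. MRTF-A and MRTF-B bind free actin monomers, and when monomers are used up they enter the nucleus and act as coactivators of serum response factor (SRF), which binds the CArG box of cytoskeletal and muscle genes.

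The start of the array code in the sample titles divides the arrays into a 2-array set (EA15, 1 array of each group) and a 4-array set (EA20, 2 of each group). The labels do not say what the codes mark. Code order and treatment cannot be told apart in the 4-array set, where both treated codes are the earlier ones. The sets differed widely: by limma with terms for doxycycline and for the set, 33.6% of 18193 genes differed between them (Benjamini-Hochberg adjusted p under 0.05), 17.3% being higher and 16.3% lower in the 4-array set. Every array had a mean signal of 500 after trimming, and the number of arrays limits the precision. The summed signal of 6 haematopoietic and interleukin-3 receptor markers ran from 22050 to 23951 on the EA15 and from 54903 to 60367 on the EA20 arrays, with Kit under the dim limit (a mean signal of 52.4, the 40th percentile of genes). Of the 6 B-lineage markers measured 3 were above that limit, Cd79b highest, while Cd79a, Ebf1 and Ms4a1 were below it.

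The bases before a transcription start of Srf, Csrp3, Mrtfa and Nebl are shown because SRF, which binds the CArG box, is among the genes followed. Each window printed is one that holds a match. Scin differed more between the array sets than Mrtfa, but its window held no match and is not printed. Gsn, with a match in 1 window, is not printed either. Each printed window is the 250 bases upstream of a RefSeq start (GRCm38.p6, minus strand, 5′ to 3′). Capitals mark a CArG box, read on both strands, either exact or with 1 mismatch. The windows lie at chr17:46556163-46556412, chr7:48848052-48848301, chr15:81190737-81190986 and chr2:17462857-17463106 in the order printed. Nebl has 4 RefSeq starts, and the one shown, the furthest downstream of them, is the only one with a CArG box, exact or with 1 mismatch. Csrp3 and Mrtfa each have a second start, not shown, without a match. Whether any of these windows acts as a promoter was not tested. Which start the array probes follow is not known here.
Srf: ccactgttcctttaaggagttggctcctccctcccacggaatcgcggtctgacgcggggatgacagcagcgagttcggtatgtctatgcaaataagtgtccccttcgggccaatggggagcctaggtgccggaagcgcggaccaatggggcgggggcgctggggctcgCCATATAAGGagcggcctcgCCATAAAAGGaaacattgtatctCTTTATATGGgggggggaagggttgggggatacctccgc
Csrp3: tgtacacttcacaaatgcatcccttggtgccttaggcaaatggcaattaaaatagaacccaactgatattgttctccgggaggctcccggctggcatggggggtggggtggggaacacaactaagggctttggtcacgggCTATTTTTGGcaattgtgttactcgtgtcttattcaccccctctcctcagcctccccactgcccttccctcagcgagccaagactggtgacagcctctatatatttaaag
Mrtfa: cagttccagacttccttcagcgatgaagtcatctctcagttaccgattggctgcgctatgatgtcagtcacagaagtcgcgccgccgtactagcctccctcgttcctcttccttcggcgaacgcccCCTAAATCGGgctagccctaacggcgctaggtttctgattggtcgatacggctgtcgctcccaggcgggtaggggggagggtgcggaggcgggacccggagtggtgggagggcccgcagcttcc
Nebl: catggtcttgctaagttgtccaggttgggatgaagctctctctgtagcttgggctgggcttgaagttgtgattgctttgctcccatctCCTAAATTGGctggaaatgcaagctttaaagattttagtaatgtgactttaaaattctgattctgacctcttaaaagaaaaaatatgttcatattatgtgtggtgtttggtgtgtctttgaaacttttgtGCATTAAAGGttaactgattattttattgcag

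Srf had 2 exact CArG boxes, which begin 82 and 62 bases before the start, and 1 more with a mismatch at 39. The window shown for Nebl had 1 exact box at 162 bases and 1 with a mismatch at 32. Csrp3 and Mrtfa had none that was exact and 1 each with a mismatch, at 110 and 124 bases. Of all 9 genes 2 had an exact box in one of their windows, against 1.62% of the 27025 genes with a window, and 5 had one with up to 1 mismatch, against 21.1%. The 9 genes had 18 windows, more per gene than all genes, so these counts are not like for like. By window 2 of 18 had an exact box, against 1.47% of 32851, and 5 of 18 had one with up to 1 mismatch, against 18.6%. The windows of Lasp1, Scin, Capg and Mrtfb held neither. Among 23 genes listed as MRTF-SRF targets and found in the table, 8 had an exact box (34.8%). A match describes the letters and is no evidence of binding.

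Nebl was lower with doxycycline in both array sets. The probe set 1438452_at read 1154 without and 223 with doxycycline in the 2-array set. The EA20 arrays read 2580 and 2424 without and 1238 and 1194 with it. Within each set the treated arrays were thus the lower ones, but the untreated array of the 2-array set lay just under the treated arrays of the 4-array set, so the groups of 3 overlapped. The group means were 2052 ± 782 and 885 ± 574 (SD, n = 3 each). With the set in the fit the level with doxycycline was 0.366 of that without (95% interval 0.264 to 0.506), a log2 difference of -1.45 (SE 0.21) on the log2(signal + 16) scale used throughout. The ratio was 0.204 on the EA15 arrays, 1 against 1, and 0.490 on the EA20 arrays.

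The other Nebl probe sets differed from each other. The dimmer 1451846_at read 139, 153 and 185 without and 29.9, 114 and 64.2 with doxycycline (2-array set first, then the 4-array set). All 3 treated arrays were below all 3 untreated ones, with a fitted ratio of 0.449 (0.279 to 0.724) and the ratio was 0.295 on the EA15 and 0.554 on the EA20 arrays. The probe set 1439897_at, under the dim limit, read 8.15 to 37.5 on the 6 arrays and had a log2 difference of 0.10 (SE 0.38). Which Nebl isoforms these probe sets read is not known here.

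**Figure D1:**
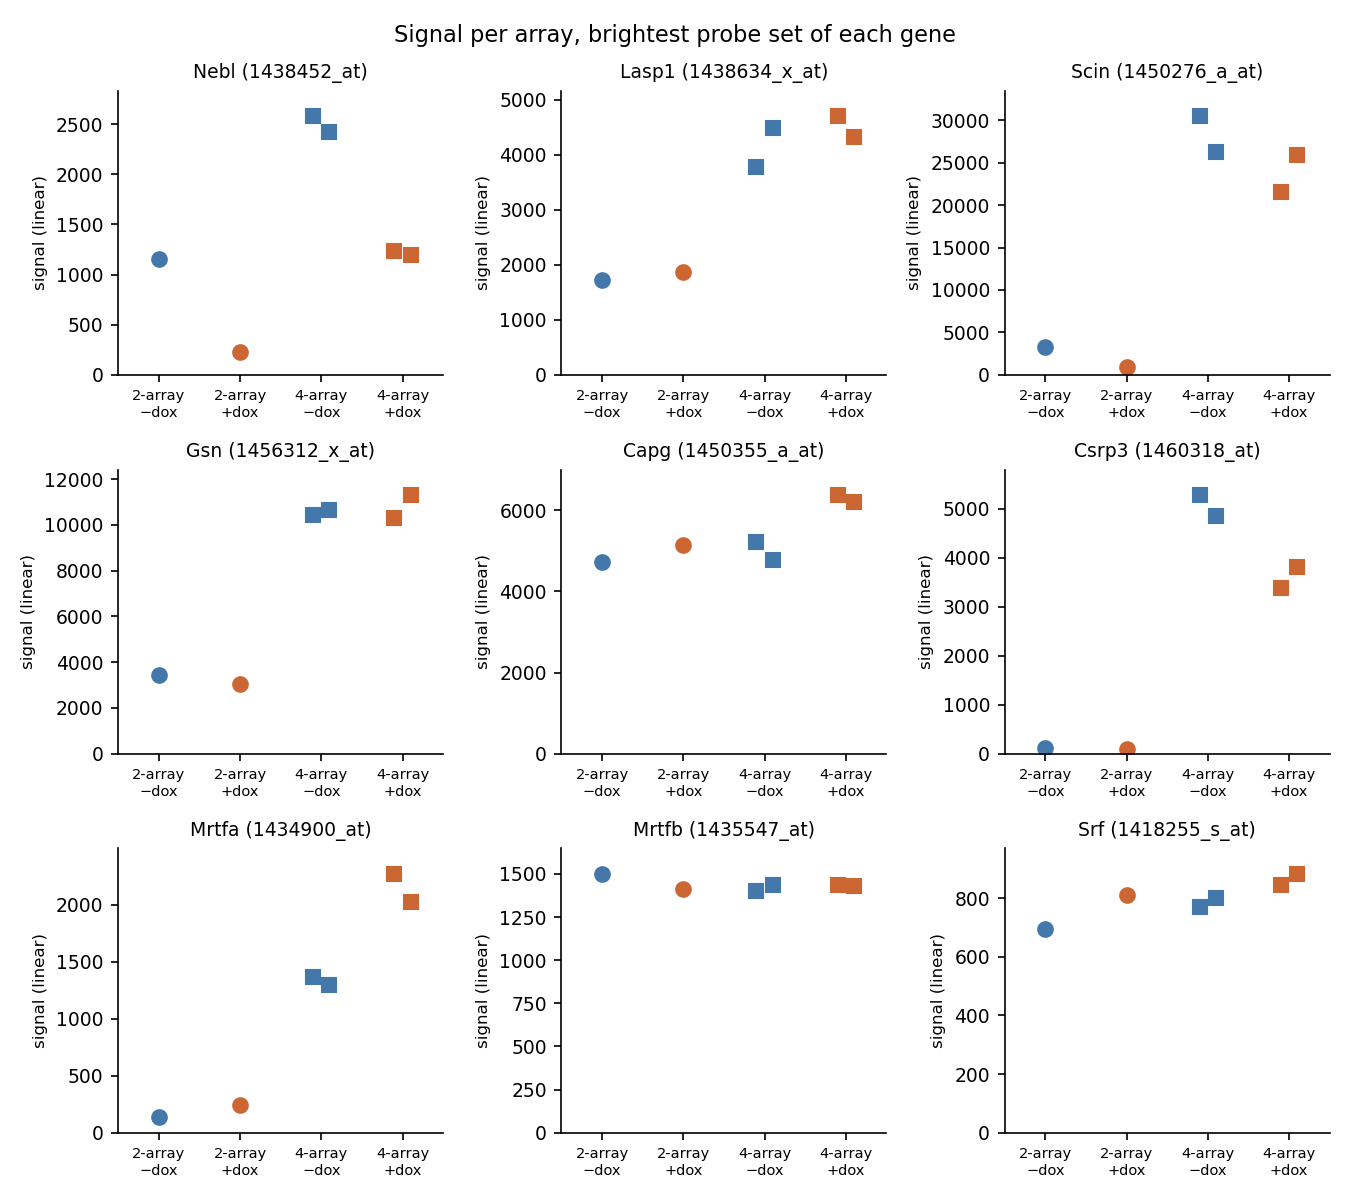
Linear signal on each of the 6 arrays for the brightest probe set of each gene, 1 panel per gene with its own axis from 0. Circles are the 2-array set, squares the 4-array set, blue is without and orange with doxycycline; Nebl is lower and Mrtfa higher with doxycycline within each set, while Csrp3, Scin, Gsn, Lasp1 and Mrtfa are all higher in the 4-array set.

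Lasp1, whose product shares LIM, nebulin-repeat and SH3 domains with the short form of nebulette, differed little with doxycycline. Its brightest probe set 1438634_x_at read 1719 without and 1869 with doxycycline in the 2-array set. In the 4-array set it read 3780 and 4487 without and 4695 and 4314 with it. The fitted ratio was 1.09 (0.966 to 1.23). Over all 9 Lasp1 probe sets the log2 differences ran from -0.22 to 0.14, 7 of them positive, and every 95% interval included 0. The lowest, -0.22 for 1456309_x_at, came from the 2-array set, where the ratio was 0.613 against 1.01 in the 4-array set.

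Scin, a calcium-dependent severing protein, was lower with doxycycline mainly in the 2-array set. Its only probe set read 3226 without and 886 with doxycycline there. The EA20 arrays read 30481 and 26323 without and 21519 and 25962 with it. The treated arrays were lower within each set, by a narrow margin in the 4-array set, and the 3-array groups overlapped. The fitted ratio was 0.579 (0.384 to 0.873), with 0.278 on the EA15 and 0.835 on the EA20 arrays. The difference between those ratios was not tested.

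Gsn, which severs and caps filaments, had 4 bright probe sets and 2 dimmer ones. The brightest, 1456312_x_at, read 3442 without and 3058 with doxycycline on the EA15 arrays, and on the EA20 arrays 10449 and 10629 without and 10286 and 11291 with it. Its ratio was 0.976 (0.873 to 1.09), and those of the next 3 were 0.937 to 0.951, each with an interval that included 1. The dimmer 1456569_x_at had a log2 difference of -0.98 (SE 0.46), which was 0.14 on the EA15 and -1.54 on the EA20 arrays. There it read 298 and 105 without and 36.2 and 70.0 with doxycycline, the single array at 298 standing apart. The probe set 1456568_at was under the dim limit, at 0.950 to 15.8.

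Capg, a capping protein that does not sever, was slightly higher with doxycycline. Its probe set 1450355_a_at read 4718 without and 5152 with doxycycline in the 2-array set. In the 4-array set it read 5226 and 4783 without and 6367 and 6210 with it. The ratio was 1.20 (1.07 to 1.34), being 1.09 on the EA15 and 1.26 on the EA20 arrays. The 2-array treated array lay below the highest untreated one, so the groups overlapped. The second Capg probe set, 1447803_x_at, read 39.4 to 301 and did not separate either the groups or the sets.

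Csrp3 was nearly the same with and without doxycycline in the 2-array set, at 107 and 108. The EA20 arrays read 5275 and 4851 without and 3391 and 3806 with doxycycline, the treated arrays being lower. The ratio was 0.992 on the EA15 and 0.711 on the EA20 arrays, and 0.794 (0.674 to 0.936) in the fit of all 6 arrays.

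Mrtfa, the coactivator that links actin monomers to SRF, was higher with doxycycline in both sets by nearly the same ratio. Its only probe set read 139 without and 242 with doxycycline in the 2-array set. In the 4-array set it read 1369 and 1293 without and 2266 and 2024 with it. Within each set the treated arrays were the higher ones, while the 3-array groups overlapped because the sets lay far apart. The ratio was 1.67 on the EA15 and 1.60 on the EA20 arrays, and 1.62 (1.43 to 1.84) with the set in the fit, a log2 difference of 0.70 (SE 0.08).

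Mrtfb, its paralogue, had nearly equal signals on all arrays. Its brightest probe set 1435547_at read 1497 without and 1413 with doxycycline in the 2-array set. The EA20 arrays read 1402 and 1436 without and 1438 and 1429 with it. The ratio was 0.988 (0.894 to 1.09). The other 2 probe sets read 64.5 to 120 and 8.56 to 54.2, with log2 differences of -0.19 (SE 0.28) and 0.30 (SE 0.44).

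Srf, the DNA-binding partner of both, was slightly higher with doxycycline. The probe set 1418255_s_at read 694 without and 810 with doxycycline on the EA15 arrays, and on the EA20 arrays 770 and 802 without and 844 and 881 with it. All 3 treated arrays were above all 3 untreated ones, from 755 ± 55.5 to 845 ± 35.7 (SD, n = 3 each), a log2 difference of 0.16 (95% interval -0.01 to 0.33). The second Srf probe set, 1418256_at, had a log2 difference of 0.15 (SE 0.20) and overlapped, at 251 to 535 without and 344 to 607 with doxycycline.

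**Figure D2:**
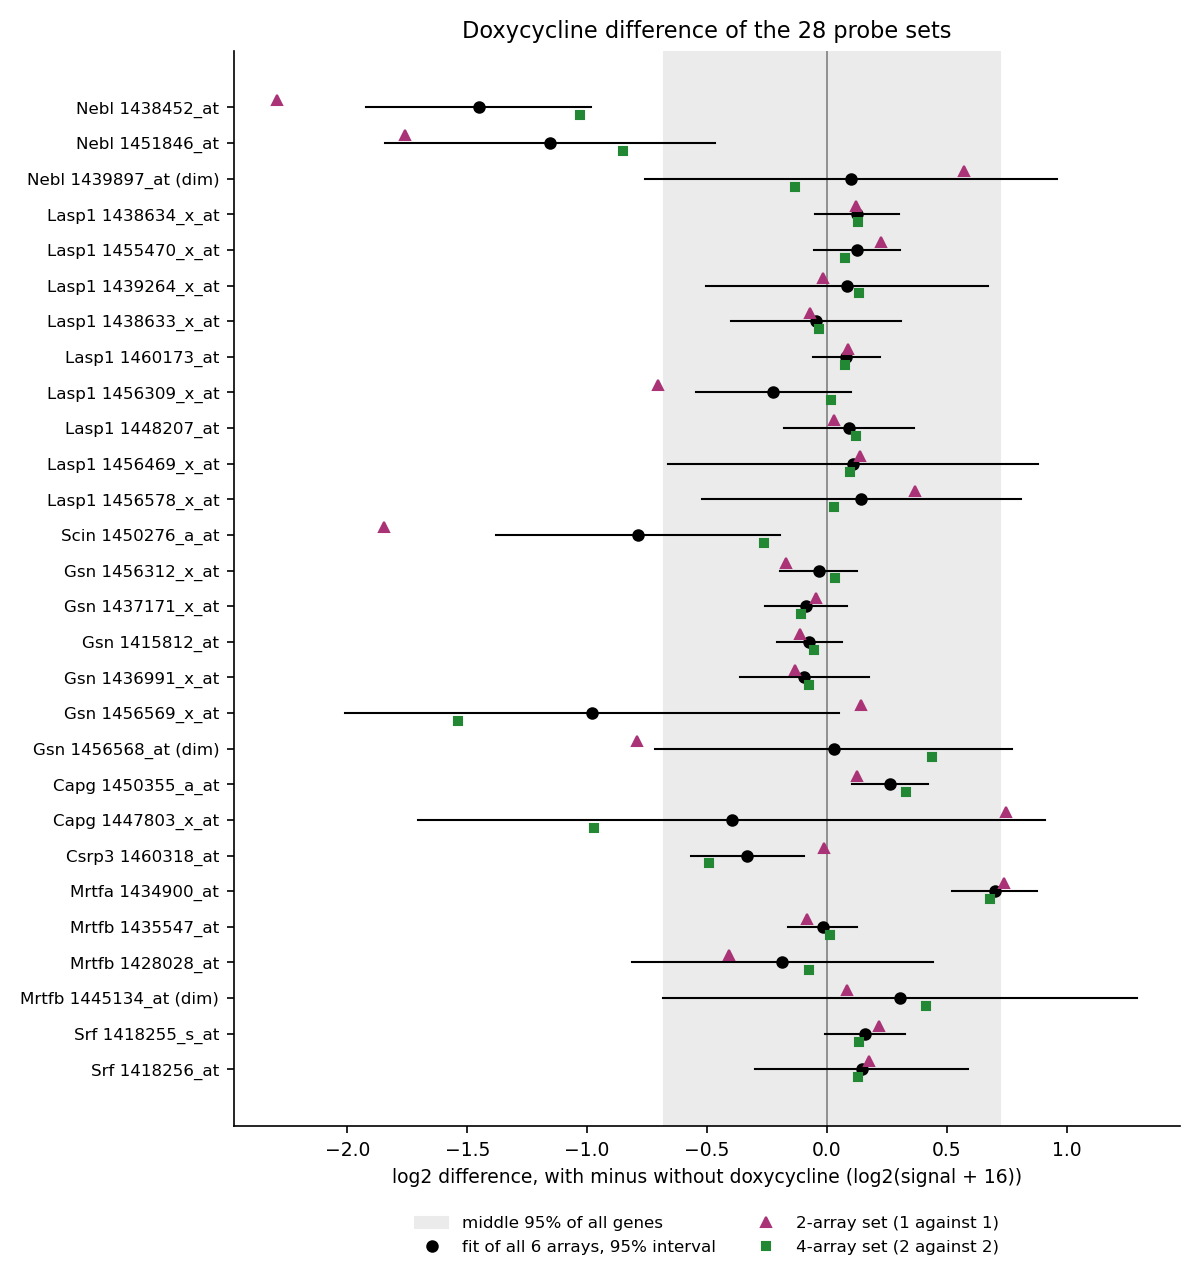
Log2 difference with minus without doxycycline for the 28 probe sets. Black points and bars are the fit of all 6 arrays with its 95% interval. Triangles are the 2-array set (1 array against 1) and squares the 4-array set (2 against 2). The grey band is the middle 95% of 18193 genes in that fit (-0.68 to 0.72) and does not apply to the triangles and squares. By the fit 2 Nebl probe sets, Scin and Gsn 1456569_x_at lie left of it, and Mrtfa lies just inside its right edge.

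Of the 9 genes, Nebl and Mrtfa were among the 36 genes called with doxycycline, 0.198% of the 18193 tested by limma with the set in the fit (Benjamini-Hochberg adjusted p under 0.05); since that call chose them, nothing is read from the count. Mrtfa was among the 0.148% called higher and Nebl among the 0.0495% called lower. With every probe set tested by itself 1 of the 28 was called, that of Mrtfa, against 0.0866% of all probe sets. Among all genes, Nebl ranked 5 from the lowest log2 difference and Mrtfa 506 from the highest. Of 28 probe sets, 1 for Nebl and 1 for Srf had groups of 3 that did not overlap, against 7.73% of all probe sets. At the level of genes, by the brightest probe set, it was Srf alone, against 6.90% of genes. With no term for the set 0 genes were called, so neither Nebl nor Mrtfa was. Neither was called without Dox(-) replicate 2 or 3 or Dox(+) replicate 2 or 3, where 3, 0, 0 and 5 genes were.

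The larger differences in these genes were between the array sets. Csrp3 was 34.8-fold higher in the 4-array set (95% interval 29.2 to 41.4), with 4331 ± 880 (SD, n = 4) against 107 and 108. It ranked 4 of 18193 genes for a higher level in that set. Scin was 15.1-fold higher (9.79 to 23.4) and ranked 11, but the factor was 8.74 among untreated and 26.2 among treated arrays, and these are also the values without the treated and without the untreated EA15 array (Dox(+) and Dox(-) replicate 1). Mrtfa was 8.54-fold higher (7.49 to 9.73) and ranked 36. For each of these genes all 4 arrays of one set lay above both arrays of the other.

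Nebl, Gsn and Lasp1 were also higher in the 4-array set, by smaller factors. Nebl was 3.33-fold higher by its brightest probe set, 2.15-fold among untreated and 5.16-fold among treated arrays. Both the untreated and the treated ratio rested on a single EA15 array. The 4 bright Gsn probe sets gave 3.27-, 6.25-, 3.57- and 5.14-fold, and they did not overlap between the sets. Of the 9 Lasp1 probe sets 6 were higher without overlap, by log2 differences of 1.18 to 1.55. Of the other 3, 2 were lower without overlap (-0.88 and -0.83) and 1 overlapped (-0.16), so the Lasp1 probe sets did not share 1 direction.

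Capg, Mrtfb and Srf differed little between the sets by their brightest probe sets, with log2 differences of 0.18 (SE 0.07), -0.03 (0.07) and 0.13 (0.08). The second Srf probe set was lower in the 4-array set (-0.63, SE 0.21). Among the 3 transcription factors the array sets thus lay far apart for Mrtfa, at 8.54-fold, and close for the brightest probe sets of its paralogue and its partner. Of the 9 genes 6 had sets that did not overlap, all higher in the 4-array set, against 46.1% of all genes in either direction and 24.6% in that one, and 18 of 28 probe sets did, against 39.6% of all probe sets. As these differences were part of how the genes were picked, the counts are a description.

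For Mrtfa both EA15 arrays lay below all EA20 arrays, and among the latter the untreated lay below the treated ones. For Nebl both EA15 arrays were likewise below the EA20 arrays, the untreated one at 1154 lying close to the treated EA20 arrays at 1194 and 1238, and the treated EA20 arrays were below the untreated ones. For Csrp3 the EA15 arrays were again the lowest, and the treated EA20 arrays lay below the untreated. Each EA15 condition is 1 array with no spread of its own, so its place against a neighbouring condition has no replicate check for any of these genes.

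**Figure D3:**
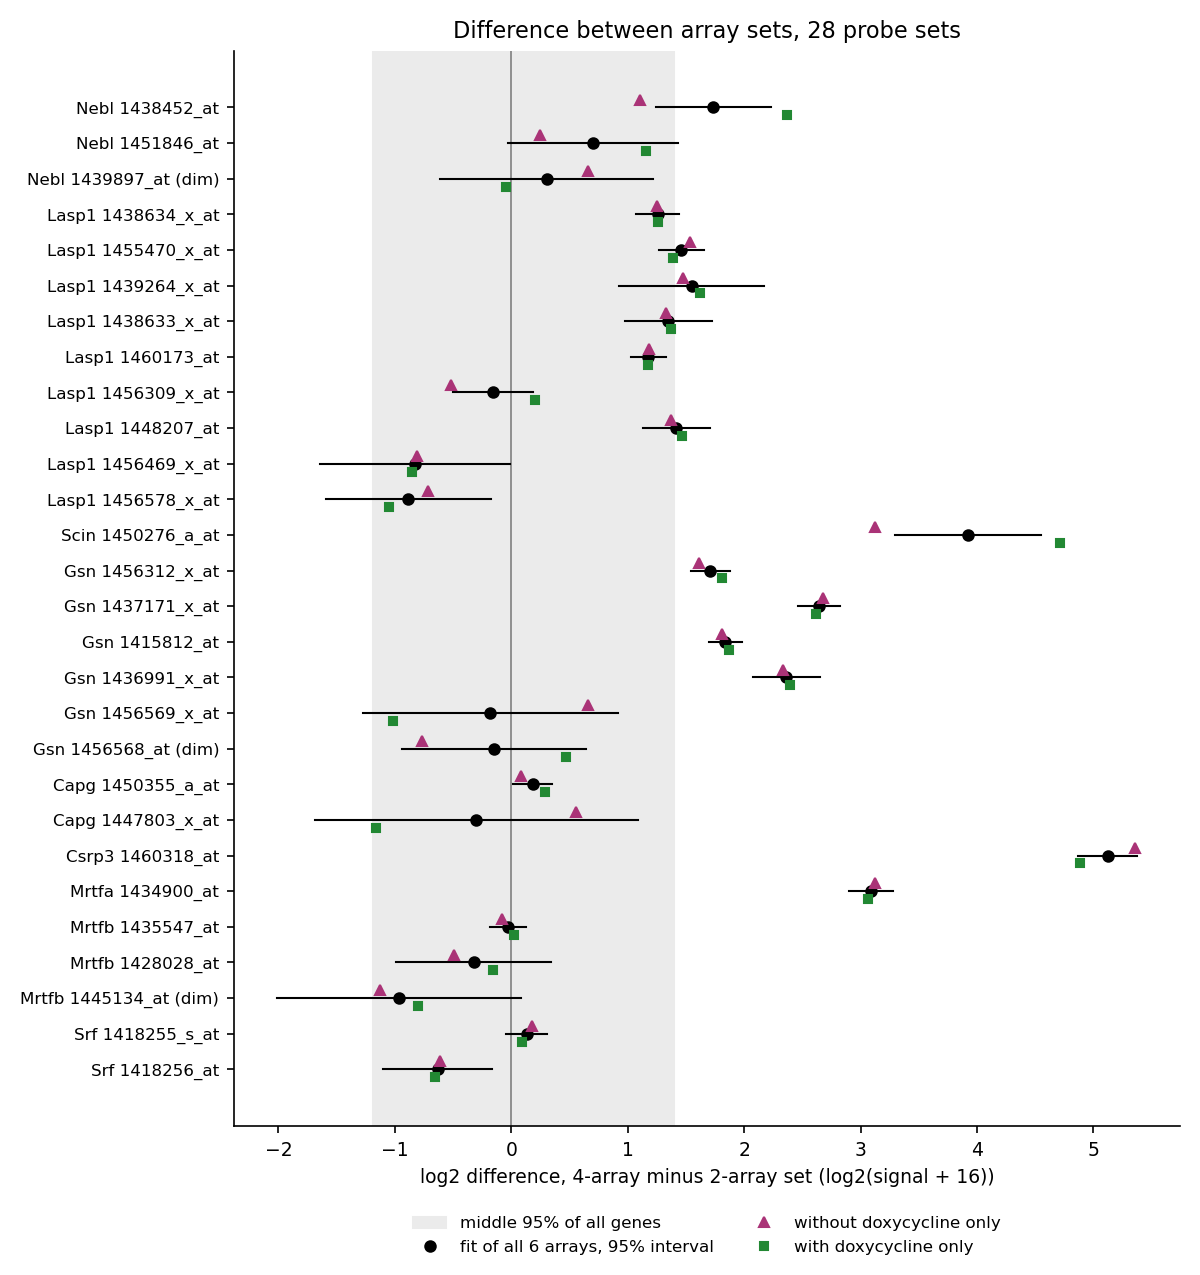
Log2 difference of the 4-array minus the 2-array set for the 28 probe sets. Black points and bars are the fit of all 6 arrays with its 95% interval, triangles the untreated and squares the treated arrays alone, and the grey band the middle 95% of all genes (-1.19 to 1.40); Csrp3 at 5.12, Scin at 3.92 and Mrtfa at 3.09 lie far right of the band, and the brightest probe sets of Mrtfb, Srf and Capg lie near 0.

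Markers of other cell types were compared with these set differences. All 8 heart muscle markers were under the dim limit, and their summed signal was 198 to 267 on the EA15 and 193 to 259 on the EA20 arrays and none passed the test between the sets. The 7 macrophage and WEHI-3 markers summed to 1185 to 1284 and 1630 to 1872, with 4 of them past the limma test between the sets, which 33.6% of all genes passed (Csf1r, Adgre1 and Itgam higher in the 4-array set, Lyz2 lower) and Cd14 and Elane under the dim limit. The 6 fibroblast markers, all dim, summed to 142 to 154 and 177 to 200. With doxycycline none of these lists held a gene that passed. The ratio of 3′ to 5′ control signal, a sign of RNA integrity, was 1.17 to 1.18 for Actb on the EA15 and 1.18 to 1.24 on the EA20 arrays. For Gapdh it went the other way, at 0.684 to 0.688 on the EA15 and 0.637 to 0.68 on the EA20 arrays. Of the 6 haematopoietic and interleukin-3 receptor markers 5 passed the limma test between the sets, all higher in the 4-array set and Kit being the exception. The part of the haematopoietic and macrophage markers in the set differences was not tested. In bulk RNA a change in the share of cells and a change in RNA per cell cannot be told apart.

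The wider pathway was read from 11 lists of actin and SRF genes, which leave out the 9 above. By limma with the set in the fit, 0 of 150 genes passed an adjusted p under 0.05, against 0.198% of all genes. At an unadjusted limma p under 0.05, 22 were higher and 5 lower, 18.0% of the 150 against 11.1% of all genes (5.82% higher and 5.26% lower). The 2 groups of genes were not matched for signal: 113 of the 150 were above the dim limit, against 10916 of all 18193. The log2 difference was positive in 101 of 150, with a median of 0.07 against 0.004 for all genes. Within the EA20 arrays that median was 0.11, against -0.002 for all genes. Within the EA15 arrays it was 0.0004, below the 0.015 of all genes. The positive count ran from 97 to 109 under quantile normalization, median centring, other pseudocounts, the 4-array set alone or the mean of all probe sets. These values pool the lists, and differences between lists were not tested.

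In the MRTF-SRF target list 0 of 27 genes passed, 20 were positive and the median was 0.11 (0.04 within the EA15 and 0.17 within the EA20 arrays). At an unadjusted limma p under 0.05, 8 were higher and 0 lower, 29.6% against 11.1% of all genes. That share ran from 6.25% to 29.6% over the lists. Of the 27 genes 19 were above the dim limit, so they were not matched to all genes for signal. Lima1, which bundles filaments, went from 568 ± 144 to 858 ± 201 (SD, n = 3 each), a log2 difference of 0.59 (SE 0.10, limma adjusted p 0.074). Vcl, encoding vinculin of adhesion sites, was at 0.34 (SE 0.06, limma adjusted p 0.077), and Flna, the cross-linker filamin A, at 0.30 (SE 0.06, limma adjusted p 0.11). Each was positive in both sets. With dim genes left out Lima1 and Vcl passed (limma adjusted p of 0.0288 and 0.0305). Between the sets 6 of the 27 were called higher and 7 lower in the 4-array set, beside 17.3% and 16.3% of all genes.

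The TCF-SRF targets, immediate early genes that SRF serves with a different group of partners, had 0 of 9 past the test and 8 positive. Fos was at 0.45 (SE 0.16), Nr4a1 at -0.83 (SE 0.49) and the dim Egr1 at 0.49 (SE 0.31). Among SRF cofactors and actin-monomer-binding RPEL proteins 0 of 11 passed, and Elk4 was at -0.15 (SE 0.06), Phactr4 at -0.19 (SE 0.10) and Scai, an inhibitor of MRTF, at -0.19 (SE 0.11). Their median, -0.02, turned positive with median centring (0.002), where that of all genes was 0.03, with probe sets averaged (0.04) and with a pseudocount of 64 (0.01). Myocd, the cardiac and smooth muscle member of the MRTF family, was under the dim limit.

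The 6 actin isoforms all had positive log2 differences and 0 passed; with a pseudocount of 64 or the mean of all probe sets 5 were positive. The cytoplasmic actins were almost level, Actg1 at 0.08 (SE 0.09) and Actb at 0.03 (SE 0.10). The muscle isoforms Actg2 and Acta2 were at 0.61 (SE 0.18) and 0.19 (SE 0.15). Within the nebulin and cysteine-rich LIM protein family 0 of 4 passed. Neb, which encodes nebulin, had 280 without and 177 with doxycycline in the 2-array set, and 425 and 544 without and 326 and 335 with it in the 4-array set. It was thus lower in each set, at -0.55 (SE 0.14, limma adjusted p 0.19), while Csrp1 was at 0.05 (SE 0.06) and the dim Csrp2 at 0.13 (SE 0.32).

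Of the remaining gelsolin family 0 of 5 passed with doxycycline, and the median of -0.02 was positive with median centring (0.01) and in the 4-array set alone (0.07). Flii was at 0.19 (SE 0.06), the dim Vil1 at 0.56 (SE 0.45) and Avil, advillin, at -0.19 (SE 0.10). Between the sets Avil was lower in the 4-array set by 2.78 on the log2 scale (limma adjusted p 1.7e-07), opposite to Scin and Gsn. Flii and Svil were higher there.

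Among factors that bind monomers or cap and sever filaments 0 of 20 passed, and Wdr1, a cofactor of cofilin, was at 0.26 (SE 0.06), Cap1, which recycles monomers, at 0.31 (SE 0.08) and Add3 at -0.15 (SE 0.05). Of 25 genes for Arp2/3, WASP, WAVE and formin nucleation 0 passed. Actr3, an Arp2/3 subunit, was at 0.24 (SE 0.06), Arpc5l at -0.17 (SE 0.05) and Wipf1 at 0.22 (SE 0.07). Among 16 cross-linkers and membrane linkers 0 passed, Enah being at 0.19 (SE 0.06) beside Vcl and Flna. Of 16 heart and striated muscle genes 3 were above the dim limit and 0 passed, either with doxycycline or between the sets. Ckm, muscle creatine kinase, was at -0.18 (SE 0.08), and Myh6 and Mb were dim, at 0.61 (SE 0.28) and -0.42 (SE 0.28).

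**Figure D4:**
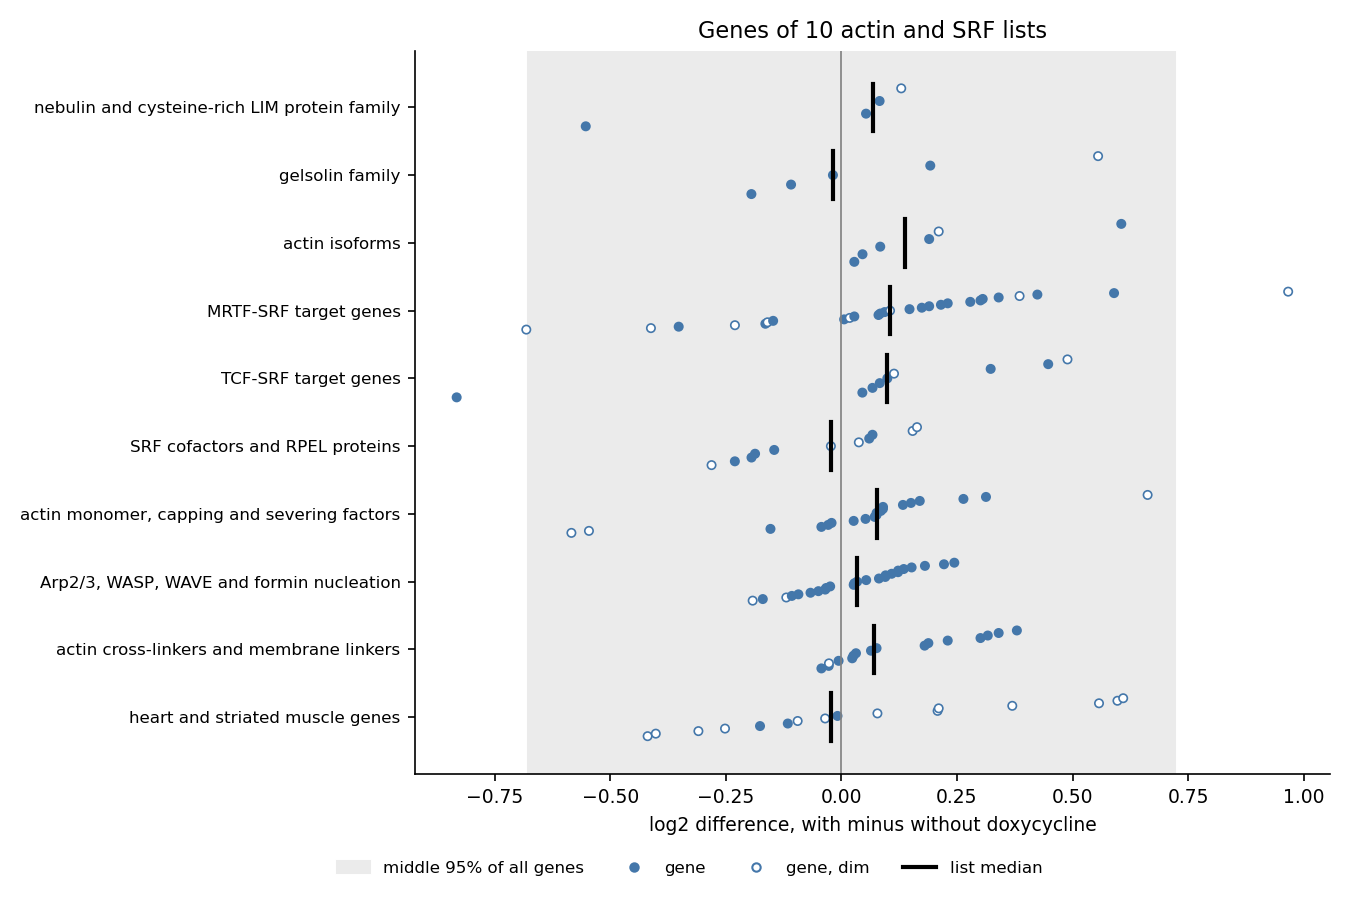
Log2 difference with minus without doxycycline for each gene of 10 of the lists, by the fit of all 6 arrays; open circles are genes under the dim limit, black bars list medians and the grey band the middle 95% of all genes. Most genes lie within 0.5 of 0, medians run from -0.02 to 0.14, and none of the genes shown passed the test.

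The genes nearest to Nebl and Mrtfa in level across the 6 arrays were found by the root mean square difference of log2 values. These values were centred on each gene's mean. The search covered 10371 genes above the dim limit, with Gm, Rik, LOC and expressed-sequence symbols left out. Nearest to Nebl were Itgae (difference 0.41), Nrxn3 (0.43), Rbm44 (0.47), Morrbid (0.47) and Tcfl5 (0.49). All of them had their lowest value on the treated array of the 2-array set, while on the EA20 arrays only Itgae was lower with doxycycline by about as much as Nebl. Itgae, an integrin subunit, read 97.1 without and 41.4 with doxycycline in the 2-array set, and 351 and 424 without and 213 and 148 with it in the 4-array set.

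Nearest to Mrtfa were Vwa5a (0.15), Cela1 (0.18), C1s1 (0.18), Pirb (0.23) and Siglecf (0.23), closer than any gene was to Nebl. Vwa5a read 952 without and 1258 with doxycycline in the 2-array set, and 8167 and 7921 without and 10842 and 11532 with it in the 4-array set. As for Mrtfa, each had its lowest values in the 2-array set, and the treated arrays were the higher ones within each set. Vwa5a, Cela1, Pirb and Siglecf were also among the 36 genes called with doxycycline (0.198% of 18193), and C1s1 was not. The search used the same arrays as that call, so nothing is read from this. The likeness rests largely on the difference between the sets and is a description.

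**Figure D5:**
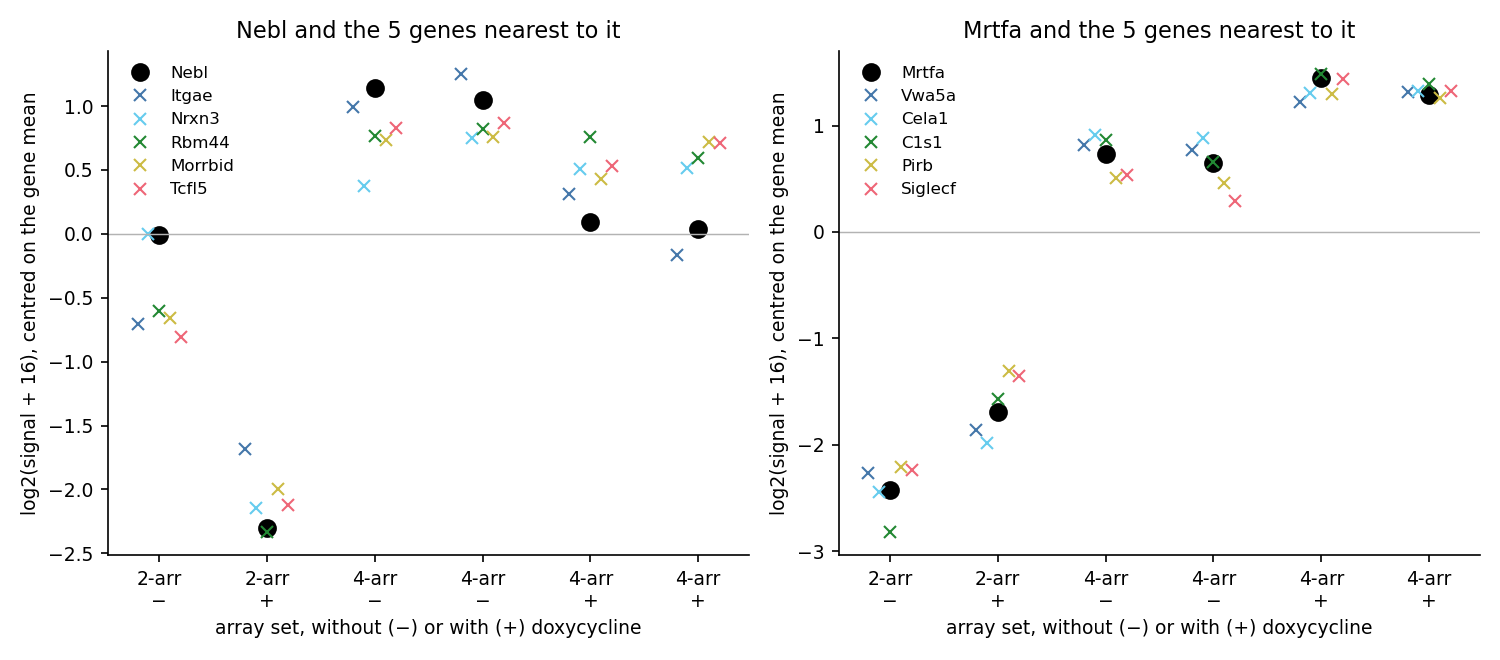
Centred log2(signal + 16) on each array for Nebl (left) and Mrtfa (right), black circles, with the 5 genes nearest to each as crosses, side by side. The Nebl neighbours share its low value on the treated 2-array array and, Itgae apart, lie above it on the treated arrays of the 4-array set; those of Mrtfa follow it on all 6 arrays, within 0.23 at the root mean square.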

How the data were processed

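RNA of 6 Ba/F3 samples was measured on 1-colour Affymetrix mouse arrays. The deposited values are intensities on a linear scale. The submitters' processing notes name Affymetrix Expression Console, and the algorithm used is not given here. The mean of every array, trimmed by 2% on both sides, is 500, which hides any change in total mRNA, and the number of arrays limits the precision. Groups came from the source names. Replicate numbers follow accession order and pair nothing.

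Of 45101 probe sets 64 controls were left out. Symbols came from the platform annotation (34945 probe sets with 1 symbol, 932 with several, 9160 unlisted), and each of 18193 genes was read by its brightest probe set. Log2(signal + 16) was fitted with limma 3.58.1 in R 4.3.3 (lmFit, eBayes with trend) with terms for doxycycline and array set, two-sided, with Benjamini-Hochberg adjustment; signals are raw, and folds understate changes of dim genes. The fit was tested on simulated data. Genes, lists, the set term and alternatives were chosen with earlier results of these data known. Named are all probe sets of the 9 genes, up to 3 genes per list by the smallest p, Actb, Myocd, Svil and some markers (chosen after their values were seen), and the 5 nearest genes. Sequences are from RefSeq (GRCm38.p6); all 9 genes matched. Of the 11 lists 1 enters the totals over all lists but is not reported here by itself.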

Additional observations from a re-analysis of the deposited data

How the results depend on the processing

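The counts of genes higher and lower with doxycycline (27 and 9) moved by over 1.5 times in many settings: 0 and 0 with no set term and with no mean-variance trend, 55 and 20 in the 4-array set alone, 80 and 50 without dim genes, 8 and 5 with probe sets averaged, 41 and 20 with a pseudocount of 1, 17 and 5 with one of 64, and 60 and 35 at an adjusted p under 0.10. Leaving out each array gave 0 to 46 and 0 to 15. The list genes called went from 0 to 2 without dim genes, 1 with a pseudocount of 1 and 2 at an adjusted p under 0.10. The number of genes differing between array sets went from 6107 to 11176 with every probe set by itself, where more features were tested, and 4527 to 5831 with an array left out. In the other cases the cause was not tested. Nebl (1438452_at) stayed negative (-1.60 to -1.03) and Mrtfa positive (0.64 to 0.75) in all 13 settings. Neither was called with no set term or with no mean-variance trend. The Nebl call was lost besides with probe sets averaged, a pseudocount of 64 or every probe set by itself. No paired analysis was possible because the labels give no replicate numbers; the EA15 arrays alone share a code across the groups, and the set term already keeps them together.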
